A study of Mus musculus with 12 samples.

Results

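The 10 genes described here are Notch receptors, Notch ligands and Notch target genes: the receptors Notch1, Notch2, Notch3 and Notch4, the ligands Jag1, Dll1 and Dll4, and the transcription factor genes Hes1, Hey1 and Heyl. They were chosen by name and found by matching Ensembl identifiers to mouse symbols, and all 10 were among the 54532 genes of the deposited table. RNA-seq was performed on mesenchymal stem cells (MSCs) of 4-week-old mice at passage 3, and RNA was taken 5 days after induction. Chd7 fl/fl mice, whose Chd7 alleles carry loxP sites, gave the control cells. Prx1-cre;Chd7 fl/fl mice gave the cells labelled knockout, so that all 12 libraries came from floxed mice. In the latter, Cre is expressed from a promoter of early limb mesenchyme and removes exon 2 of Chd7, which encodes a chromatin remodeler, in mesenchymal cells but not in other marrow cells. Cells of both genotypes were kept in osteogenic medium, to which dexamethasone at 10 nM, ascorbic acid at 50 µM and β-glycerophosphate at 10 mM had been added, or in adipogenic medium with isobutylmethylxanthine at 0.5 µM, dexamethasone at 1 µM and insulin at 10 µg/ml. This gave 4 groups of 3 libraries. The labels do not say whether the 3 libraries of a group came from separate mice, so the p-values below measure the spread between these libraries, which may be technical.

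Notch receptors are single-pass membrane proteins that are activated by ligands on a neighbouring cell. Ligand binding leads to shedding by an ADAM protease and then to cleavage by γ-secretase, and the released intracellular domain enters the nucleus, where it binds RBPJ and a Mastermind co-activator. Hes1, Hey1 and Heyl are classical targets of this complex and encode basic helix-loop-helix repressors. In bone, Notch signalling is known for keeping mesenchymal progenitors from maturing into osteoblasts, and Hes1 and Jag1 are also known for roles in adipocyte differentiation. In blood vessels, Notch4 is known as a receptor of endothelial cells and Notch3 as a receptor of mural cells.

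Values are FPKM, which are fragments divided by the length of the gene in kilobases and by a factor of the library. Genes of different length can thus be set side by side. The factor was not the plain depth, as the FPKM had been scaled by median ratios between libraries. In control adipogenic libraries 1, 2 and 3, 1 FPKM on 1 kilobase was 16.4, 20.9 and 16.2 fragments. Their fragments on genes were 19148338, 21093450 and 18637179. Fold changes are on the scale of log2(FPKM + 1), which understates the change of genes with low values, and were tested with limma in a single fit over all 12 libraries. A gene was called when its p adjusted by the Benjamini-Hochberg method over all 12871 genes tested was under 0.05. The depth was 17490797 to 21093450 fragments on genes in a library, as recovered from the smallest steps between FPKM values. Of the 10 genes, 7 passed the filter of at least 1 FPKM in at least 3 libraries. Dll1, Dll4 and Heyl did not and were not tested.

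Several facts about the libraries touch the results below. Control adipogenic library 2 stood apart. Over the genes tested, its mean Pearson correlation was 0.941 with the other libraries of its own group, against 0.981 with the control and 0.984 with the knockout osteogenic libraries. Macrophage genes were abundant in all libraries of these MSC cultures, and the summed FPKM of 10 macrophage markers, none of them at 0, was 16427 and 16868 in control adipogenic libraries 1 and 3 against 4929 to 12641 in the 10 others. Of these 10 markers, 7 were higher in libraries 1 and 3 than in all 10 others, and 2 (Cd68 and Mrc1) were lower. The sum was mostly Lyz2, with group means of 4280 to 11249 FPKM. The 3 knockout adipogenic libraries had the lowest sums of all 12, at 4929 to 6328. In adipogenic medium 6 of the 10 markers were called lower and 1 higher in knockout libraries, beside 16.5% and 16.7% of all genes. In osteogenic medium 2 were called lower and 0 higher, beside 4.15% and 4.94%. The summed FPKM of 11 mesenchymal stromal markers, none of them at 0, was 1232 to 1859. Of these, the MSC surface marker gene Itgb1 was at 317 to 412 FPKM and Prrx1, a factor of limb mesenchyme, at 14.1 to 22.6 FPKM, while the MSC surface marker gene Thy1 was at 0.206 to 1.03 FPKM. Chd7 was at 2.64, 2.67 and 2.77 FPKM in control and at 2.03, 2.35 and 2.28 in knockout osteogenic libraries, and at 2.26, 1.81 and 2.23 against 2.03, 2.35 and 2.48 in adipogenic libraries. The difference passed the test in neither medium (log2 fold changes of -0.20 and 0.09, limma adjusted p = 0.16 and 0.428). As these values cover the whole gene and only exon 2 is removed, they are a weak check of the labels. The glucocorticoid-induced gene Fkbp5 was at 30.6 to 32.6 FPKM in control and 6.19 to 6.90 in knockout osteogenic libraries, but at 3.69 to 5.46 in control and 29.9 to 42.8 in knockout adipogenic libraries. Tsc22d3, also induced by glucocorticoids, was at 36.4 to 38.5 FPKM in control and 13.2 to 13.7 in knockout osteogenic libraries, and at 6.74 to 11.72 against 43.1 to 56.6 in adipogenic libraries. The 2 genes thus differed between the genotypes in opposite directions in the 2 media. Whether labels of genotype or medium had been exchanged was not tested, and an exchange would change what each genotype difference below means, so control and knockout stand for the libraries labelled as such. In bulk RNA, fewer cells of a type and less RNA per cell cannot be told apart.

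The results turn most on Notch3 and Notch4, which were both higher in knockout than in control adipogenic libraries. Both lie on chromosome 17 of GRCm38, Notch3 (ENSMUSG00000038146) at 32120820 to 32166852 on the minus strand and Notch4 (ENSMUSG00000015468) at 34564268 to 34588503 on the plus strand. The 250 bases before their RefSeq starts on GRCm38.p6 are shown 5′ to 3′ because these promoters belong to the genes with the largest differences in that comparison. They are chr17:32166891-32167140 on the minus strand for Notch3 and chr17:34564045-34564294 on the plus strand for Notch4, with CpG dinucleotides in capitals.
Notch3: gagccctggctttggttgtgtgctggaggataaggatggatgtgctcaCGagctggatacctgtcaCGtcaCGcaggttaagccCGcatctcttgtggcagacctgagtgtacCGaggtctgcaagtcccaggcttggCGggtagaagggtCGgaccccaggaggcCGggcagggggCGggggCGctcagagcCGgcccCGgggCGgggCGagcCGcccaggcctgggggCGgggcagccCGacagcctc
Notch4: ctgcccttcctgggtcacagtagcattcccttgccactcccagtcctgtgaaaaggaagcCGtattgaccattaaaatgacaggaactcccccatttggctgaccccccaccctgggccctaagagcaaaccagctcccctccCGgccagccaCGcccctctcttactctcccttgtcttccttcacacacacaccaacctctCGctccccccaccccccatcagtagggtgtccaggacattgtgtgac
The Notch3 sequence held 17 CpG and was 68.8% G or C, while the Notch4 sequence held 4 CpG and was 58.4% G or C. The median of all 32851 RefSeq promoters of this length was 6 CpG. The letters GTGGGAA, to which RBPJ is known to bind, were searched on both strands and were in 0 of the 8 promoters that RefSeq gave for 7 of the 10 genes. Of all promoters of this length, 5.42% held them. For Hes1, Hey1 and Heyl no promoter sequence was used here.

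Notch2 was the most abundant receptor in every library. Its level was 15.3 ± 0.749 FPKM (SD, n = 3) in control and 14.6 ± 0.882 in knockout osteogenic libraries, and 18.8 ± 5.29 in control and 14.5 ± 0.192 in knockout adipogenic libraries. Jag1, the main ligand in these cells, and Hes1 followed Notch2 in both osteogenic groups, with Jag1 above Hes1 in control and Hes1 above Jag1 in knockout libraries. In these groups the ranges of Notch2, Jag1, Hes1 and Notch1 did not overlap one another. Notch1 was in the fourth place in 3 of the 4 groups. Notch3, Hey1 and Notch4 came next in osteogenic libraries at means of 1.20 to 1.81 FPKM, and the ranges of neighbours in that order overlapped. In knockout adipogenic libraries the order was different: Notch3 (5.30 ± 0.214 FPKM) and Notch4 (3.51 ± 0.482) both had a higher mean than Notch1 (3.32 ± 0.240), although the ranges of Notch4 and Notch1 overlapped.

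**Figure D1:**
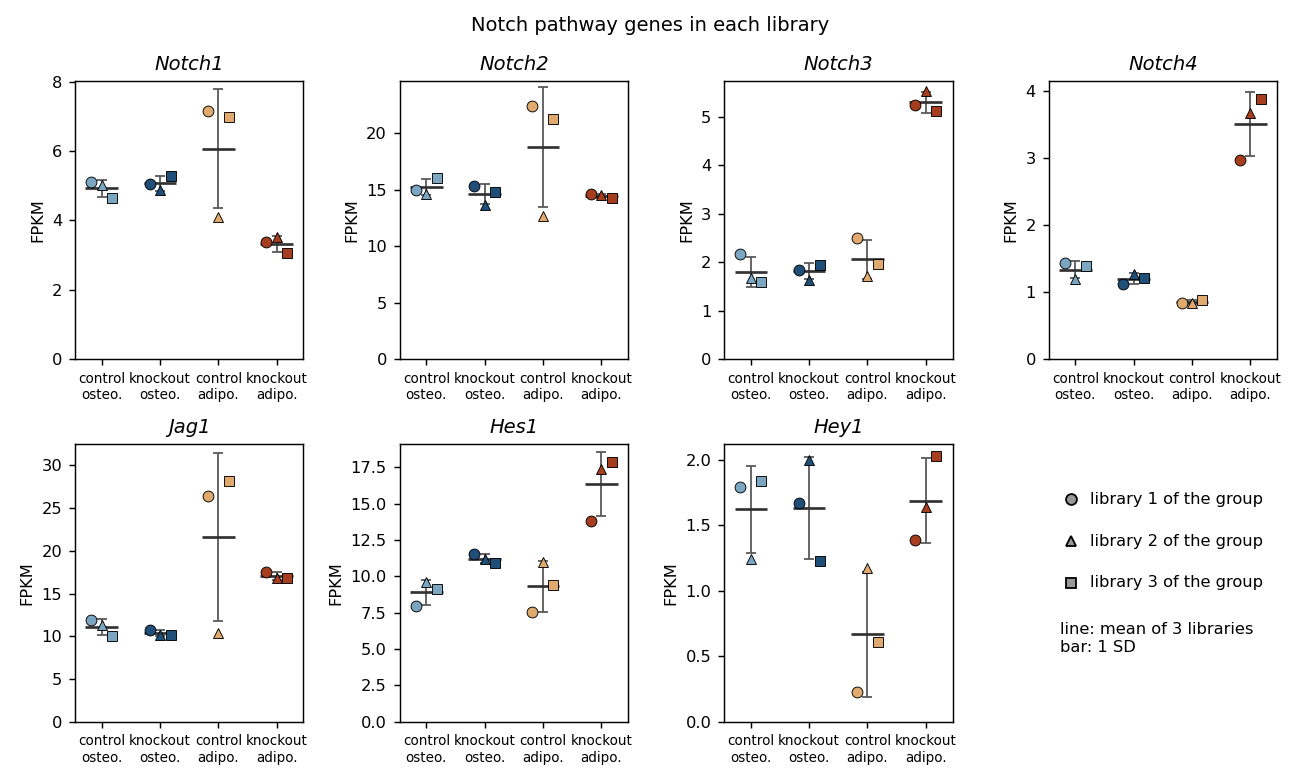
FPKM (y axis, from 0) of the 7 genes tested, in the 4 groups (x axis). Each point is a library, its shape gives the number of the library in its group, the line is the mean of 3 libraries and the bar is 1 SD. Notch3 and Notch4 stand highest in the 3 knockout adipogenic libraries, and control adipogenic library 2 (triangle) lies away from libraries 1 and 3 for Notch1, Notch2, Jag1 and Hey1.

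The first comparison asked whether the genotype label went with the level of Notch genes in osteogenic medium. None of the 7 genes tested was called by limma there, while 9.09% of all genes tested were called, 4.94% higher and 4.15% lower. Hes1 came nearest, with 7.96, 9.61 and 9.17 FPKM in control libraries and 11.5, 11.2 and 10.9 in knockout libraries. The 3 knockout values of Hes1 lay above the 3 control values, as was the case for 21% of all genes tested. Its log2 fold change was 0.30 ± 0.13 (SE), with a limma p of 0.0377 before and 0.181 after adjustment. In a fit of only the 6 osteogenic libraries the adjusted p of Hes1 was 0.0164, and 3418 genes were called in that fit against 1170 with all 12 libraries.

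The receptors and Jag1 had overlapping groups in osteogenic medium. Notch1 was at 5.11, 5.03 and 4.65 FPKM in control and at 5.05, 4.87 and 5.28 in knockout libraries, and Notch2 at 15.0, 14.6 and 16.1 against 15.3, 13.6 and 14.8. Notch3 was at 2.16, 1.66 and 1.59 FPKM in control and at 1.85, 1.64 and 1.95 in knockout libraries. Notch4 was at 1.43, 1.20 and 1.38 against 1.12, 1.28 and 1.21. The 95% confidence intervals of the log2 fold changes were narrowest for these receptors of low level, from -0.22 to 0.24 for Notch3 and from -0.27 to 0.10 for Notch4. Jag1, at 12.0, 11.3 and 10.0 FPKM in control and 10.8, 10.2 and 10.1 in knockout libraries, had the widest interval, from -0.72 to 0.54. Hey1 was at 1.79, 1.24 and 1.84 against 1.67, 1.998 and 1.23 FPKM, with an interval from -0.44 to 0.45.

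The second comparison asked the same in adipogenic medium, where 5 of the 7 genes were called, 4 higher (Notch3, Notch4, Hes1 and Hey1) and 1 lower (Notch1) in knockout libraries. Of all genes tested, 33.2% were called, 16.7% higher and 16.5% lower. The groups of these 5 genes did not overlap, as was the case for 38.6% of all genes tested. The median log2 fold change was 0.72 over the 7 genes tested and -0.01 over all genes. Members of the family thus moved in both directions, and the receptors were split, with Notch3 and Notch4 higher, Notch1 lower and Notch2 not called.

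Notch4, a receptor known from endothelial cells, had the largest difference. It was at 0.830, 0.836 and 0.888 FPKM in control and at 2.97, 3.68 and 3.88 in knockout adipogenic libraries. The groups were far apart, and the 3 control values were also the lowest 3 of all 12 libraries. The mean was 4.12 times as high in knockout libraries, and the log2 fold change was 1.28 ± 0.08 (SE, limma adjusted p = 6.5e-06). These values rest on 110 to 141 fragments in control and 449 to 595 fragments in knockout libraries.

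Notch3, a receptor known from mural cells, was at 2.50, 1.72 and 1.96 FPKM in control and at 5.25, 5.54 and 5.12 in knockout adipogenic libraries. All 3 knockout values were over those of the other libraries, of which the highest was 2.50 FPKM. The mean was 2.58 times as high, and on the log2 scale the difference was 1.05 ± 0.10 (SE), at a limma adjusted p of 7.43e-05. Both Notch3 and Notch4 were called under all 8 other settings tried and with each of the 6 adipogenic libraries left out in turn.

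Notch1, the receptor best known from T-cell development, was at 7.14, 4.09 and 6.97 FPKM in control and at 3.37, 3.53 and 3.06 in knockout adipogenic libraries. It fell by 0.68 on the log2 scale (SE 0.15, limma adjusted p = 0.00688), with all knockout values below all control values. Control library 2 lay closest to the knockout values, and without it the log2 fold change was -0.90 (adjusted p = 1.88e-06). In a fit of only the 6 adipogenic libraries Notch1 was not called (adjusted p = 0.0729).

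Notch2 was at 22.4, 12.7 and 21.3 FPKM in control and at 14.6, 14.5 and 14.2 in knockout adipogenic libraries. Its control library 2 was below all knockout values and the other 2 control libraries were above them, so that the log2 fold change of -0.32 ± 0.16 (SE) was not called (limma adjusted p = 0.158). Jag1 behaved likewise, at 26.4, 10.4 and 28.2 FPKM in control and 17.6, 16.8 and 16.8 in knockout libraries, and its difference of -0.21 ± 0.28 on the log2 scale was not called either (limma adjusted p = 0.603). For both genes library 2 decided the result. Without it, Notch2 was lower in knockout libraries by a log2 fold change of -0.56 (adjusted p = 2.58e-05) and Jag1 by -0.65 (adjusted p = 2.73e-05), and all 7 genes were then called, when 6559 of all genes tested were called against 4276 with it.

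The target genes Hes1 and Hey1 were both higher in knockout adipogenic libraries. Hes1 was at 7.53, 11.0 and 9.39 FPKM in control and at 13.8, 17.4 and 17.9 in knockout libraries, without overlap, and its log2 fold change was 0.76 ± 0.13 (SE, limma adjusted p = 0.00164). Hey1 was at 0.224, 1.17 and 0.605 FPKM in control and at 1.39, 1.64 and 2.03 in knockout libraries. The control values of Hey1 were 12, 80 and 32 fragments. Its difference was the least precise of those called (log2 fold change 0.72 ± 0.20, limma adjusted p = 0.0208). Hey1 was no longer called when control library 1 or 3, or knockout library 2 or 3, was left out (adjusted p = 0.0672, 0.0556, 0.0543 and 0.0796), nor with only the 6 adipogenic libraries (adjusted p = 0.0912). Without control library 2 its log2 fold change was 0.93 (adjusted p = 0.00149).

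**Figure D2:**
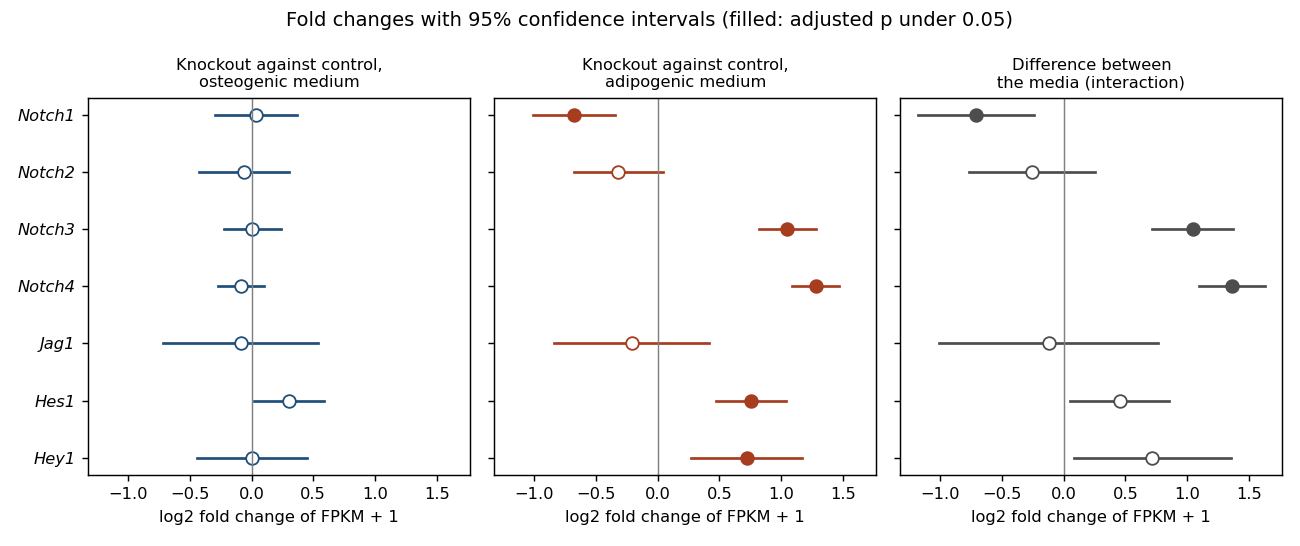
Log2 fold changes of FPKM + 1 (x axis) of the 7 genes tested, for knockout against control in osteogenic medium, in adipogenic medium, and for the difference between these 2 fold changes. Points are estimates of limma, lines are 95% confidence intervals, and filled points have an adjusted p under 0.05. No point is filled in osteogenic medium, while Notch3 and Notch4 lie at 1.05 and 1.28 in adipogenic medium.

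Whether the genotype difference itself differed between the media was tested by the interaction of genotype and medium. It was called for 3 of the 7 genes, Notch3 and Notch4 upwards and Notch1 downwards, while 20.4% of all genes tested were called, 10.9% upwards and 9.58% downwards. The knockout against control difference in adipogenic medium was greater than that in osteogenic medium by a log2 value of 1.36 ± 0.12 (SE) for Notch4 (limma adjusted p = 7.23e-05) and 1.04 ± 0.15 for Notch3 (adjusted p = 0.00106). For Notch1 it was -0.71 ± 0.21 (adjusted p = 0.0388), a call that was lost when any library other than control adipogenic library 2 was left out (adjusted p = 0.0612 to 0.09) and without a filter on low values (adjusted p = 0.0848). For Hes1 and Hey1, which were called in adipogenic medium alone, the interaction was 0.45 ± 0.18 and 0.72 ± 0.28 and was not called (adjusted p = 0.103 for both), so a difference between the media was not shown for them. Without control adipogenic library 2 the interaction was called for all 7 genes, among them Notch2 (-0.50), Jag1 (-0.56), Hes1 (0.57) and Hey1 (0.93). With a library left out, the interaction called as many as 5427 of all genes, against 2630 with all 12 libraries.

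The composition of the receptors was also compared as the share of each gene in the summed FPKM of the 4 receptors of a library, which does not depend on how libraries are scaled. In knockout adipogenic libraries Notch3 took 20.1%, 20.3% and 19.5% and Notch4 took 11.3%, 13.5% and 14.8% of the sum. In control adipogenic libraries Notch3 took 7.59%, 8.87% and 6.30% and Notch4 took 2.53%, 4.32% and 2.86%. The share of Notch2 was 67.4% ± 1.51 (SD, n = 3) in control and 54.4% ± 1.25 in knockout libraries, and that of Notch1 was 21.8% ± 0.652 and 12.5% ± 0.740. Control library 2, in which the summed FPKM of the receptors was 19.4 against 32.9 and 31.1 in libraries 1 and 3, had shares of Notch1 and Notch2 (21.1% and 65.7%) close to theirs. For all 4 receptors the shares of the 2 adipogenic groups did not overlap (two-sided exact permutation test, p = 0.1, the smallest that 3 against 3 libraries can give, adjusted p = 0.178 over 16 tests).

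In osteogenic medium the shares were alike between the genotypes. Notch1 took 21.2% ± 1.40 in control and 22.4% ± 0.635 in knockout libraries, Notch2 took 65.4% ± 2.28 and 64.3% ± 1.15, Notch3 took 7.73% ± 1.23 and 7.98% ± 0.379, and Notch4 took 5.72% ± 0.372 and 5.31% ± 0.595 (SD, n = 3). The differences ranged from -1.04 to 1.20 percentage points (exact permutation p = 0.2 to 0.8). The 3 knockout adipogenic libraries were thus the ones in which Notch1 and Notch2 together took less than in any of the other 9.

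**Figure D3:**
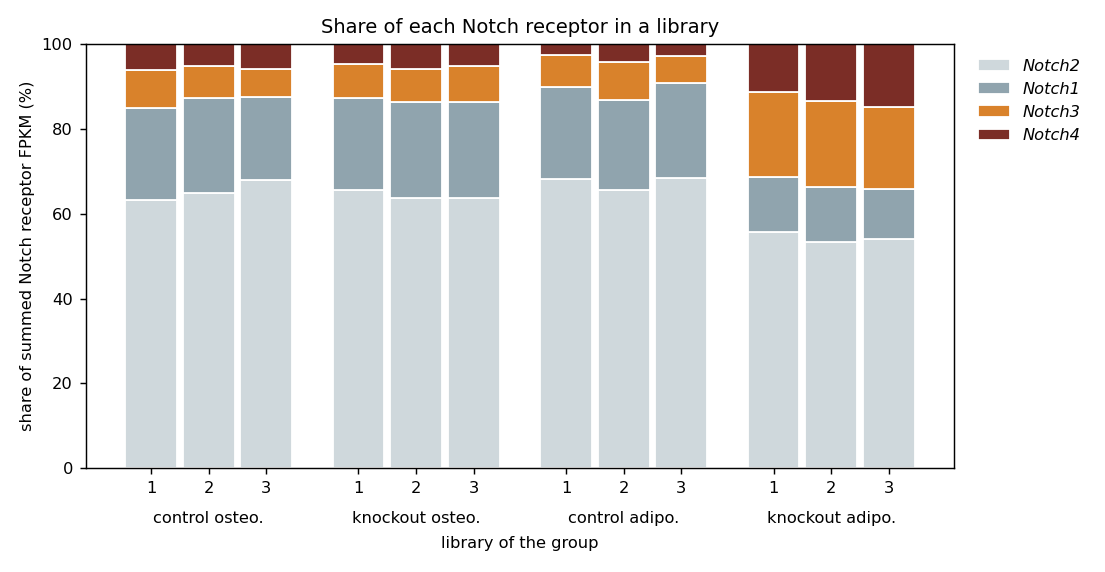
Share (%) of Notch2, Notch1, Notch3 and Notch4 in the summed FPKM of the 4 receptors (y axis), for each of the 12 libraries (x axis). Each bar is a library. Notch3 and Notch4 together take a larger part in the 3 knockout adipogenic libraries, with mean shares of 19.9% and 13.2%, than in the others.

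The media were then compared within each genotype, a comparison that shares its libraries with those above. In control cells 2 of the 7 genes were called between adipogenic and osteogenic medium, both lower in adipogenic medium, while 22.8% of all genes tested were called, 12.3% lower and 10.5% higher. These were Notch4 (log2 fold change -0.33 ± 0.08 SE, limma adjusted p = 0.0208) and Hey1 (-0.69 ± 0.20, adjusted p = 0.0363). Neither call held in a fit of the 6 control libraries alone (adjusted p = 0.0806 and 0.133) or without a filter on low values (adjusted p = 0.0563 and 0.0825). Notch4 was not called when control osteogenic library 1 or 3 or control adipogenic library 1 or 3 was left out (adjusted p = 0.0536 to 0.0744). Hey1 was called only when control adipogenic library 2 was the one left out, of the 6.

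In control cells the mean of Jag1 was 1.95 times as high in adipogenic as in osteogenic medium, but its library 2 lay at 10.4 FPKM, within the osteogenic range of 10.0 to 12.0. Its log2 fold change was 0.79 ± 0.28 (SE, limma adjusted p = 0.0683). Without that library the mean of Jag1 was 2.46 times as high (log2 fold change 1.23, adjusted p = 8.23e-07), and Notch1 (0.44, adjusted p = 0.000197) and Notch2 (0.49, adjusted p = 7.26e-05) were called as well. For Notch1, Notch2 and Jag1 the values thus moved with control adipogenic libraries 1 and 3, the libraries with the largest sum of macrophage markers. The part of macrophages in these differences was not tested.

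In knockout cells 4 of the 7 genes were called between the media, 3 higher in adipogenic medium and 1 lower, while 27.9% of all genes tested were called, 13.9% higher and 14% lower. Notch3 rose by 1.17 ± 0.10 on the log2 scale (SE, limma adjusted p = 4.18e-05) and Notch4 by 1.03 ± 0.08 (adjusted p = 2.62e-05), each to a mean 2.93 and 2.92 times that in osteogenic medium. Hes1 was 1.46 times as high in the mean (log2 fold change 0.50 ± 0.13, adjusted p = 0.0155). Its call was lost without knockout osteogenic library 3 or knockout adipogenic library 2 or 3 (adjusted p = 0.0507, 0.0551 and 0.0626). Notch1 was lower in adipogenic medium by a log2 fold change of -0.49 ± 0.15 (adjusted p = 0.0336), and this call was lost with any of the 6 knockout libraries left out (adjusted p = 0.0615 to 0.106). Jag1 was at 16.8 to 17.6 FPKM in adipogenic and 10.1 to 10.8 in osteogenic knockout libraries. Its groups did not overlap, as was the case for 26% of all genes in this direction, but with the spread of all 12 libraries it was not called (0.67 ± 0.28, adjusted p = 0.105), and in a fit of the 6 knockout libraries it was (adjusted p = 0.000117).

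The 3 genes below the filter were near the limit of detection. Dll1, a ligand of the Delta family, had 0 to 18 fragments per library and at most 0.227 FPKM. Dll4, the Delta ligand known from vessel sprouting, had 0 to 5 fragments, and in 10 of 12 libraries no more than 3, a count that corresponds to 0.0372 to 0.0481 FPKM. Heyl, a target gene of the HEY group, had 0 to 18 fragments and at most 0.214 FPKM. Summed over the 3 libraries of a group, Dll1 had 7 fragments in control and 21 in knockout osteogenic libraries and 35 in each adipogenic group. Heyl had 20 and 39 fragments in control and knockout osteogenic libraries and 31 and 17 in control and knockout adipogenic libraries.

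For these sums the fragments were divided by the library factors behind the FPKM, which are not the plain depth. The ratio of the quotients was given an exact 95% interval (Clopper-Pearson), which covers counting error only. Intervals with the plain depth were not calculated, so limits near 1, such as those of Heyl, hold for this scaling alone. For Dll1 the ratio was 2.91 (interval 1.19 to 8.10) for knockout against control in osteogenic medium and 4.91 (2.15 to 13.1) for adipogenic against osteogenic medium in control cells. For Heyl the ratio of knockout to control was 1.89 (1.08 to 3.42) in osteogenic and 0.519 (0.269 to 0.967) in adipogenic medium, and that of adipogenic to osteogenic medium in knockout cells was 0.418 (0.222 to 0.756). The other 7 intervals of the 3 genes, Dll4 included, held a ratio of 1. The spread between libraries is not in these intervals. In control adipogenic libraries Heyl had 18, 0 and 13 fragments, and no test over libraries was run for the 3 genes.

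Genes of other cell types in which Notch3 and Notch4 are known to be active also differed between the groups. The summed FPKM of 10 endothelial markers, none of them at 0, was 7.08 to 7.55 in control and 13.7 to 14.8 in knockout osteogenic libraries, and 6.69 to 7.08 and 10.3 to 12.7 in adipogenic libraries. In both media 3 of the 5 endothelial markers tested were called higher in knockout libraries, beside 4.94% of all genes in osteogenic and 16.7% in adipogenic medium. None of those tested was called lower. In each group 6 to 8 of the 10 markers were under 1 FPKM in all 3 libraries. Kdr had a lower mean in knockout than in control osteogenic libraries (0.908 against 1.05 FPKM). In adipogenic medium the same held for Pecam1 (0.816 against 1.05 FPKM) and Esam (0.597 against 0.636). Cdh5, which encodes VE-cadherin, was at 0.552 to 0.722 FPKM in control and 2.55 to 3.15 in knockout osteogenic libraries. Notch4 did not share that osteogenic difference, being at 1.20 to 1.43 FPKM in control and 1.12 to 1.28 in knockout libraries.

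The summed FPKM of 10 mural and smooth muscle markers, carried mostly by Acta2, was 771 to 808 in control and 1001 to 1051 in knockout osteogenic libraries, and 882 to 1206 and 1391 to 1590 in adipogenic libraries, while the pericyte marker Kcnj8 was at 0 in 8 of the 12. Of 6 such markers tested, 3 were called higher in knockout libraries in osteogenic and 5 in adipogenic medium, beside the same shares of all genes. None of the 6 was called lower. In each group 4 to 6 of the 10 markers were under 1 FPKM in all 3 libraries. Among these low markers, Des and Kcnj8 had a lower mean in knockout than in control osteogenic libraries. In adipogenic medium the same held for Kcnj8 and Abcc9. Pdgfrb, the receptor of platelet-derived growth factor B on mural and mesenchymal cells, was at 40.9 to 46.5 FPKM in both osteogenic groups, at 39.9 to 49.4 in control adipogenic and at 71.9 to 87.1 in knockout adipogenic libraries. The part of endothelial or mural cells in the levels of Notch3 and Notch4 was not tested.

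Among all genes tested, the gene whose log2(FPKM + 1) was most like that of Notch3 over the 12 libraries was Pdgfrb (Pearson r = 0.982), followed by Slc4a2 (0.980) and Pde4dip (0.975). For Notch4 they were Wdr61 (0.982), Slc5a3 (0.981) and Rab15 (0.981), and Notch3 and Notch4 had an r of 0.908 with each other. Notch2 was most like Rrbp1 (0.988), Notch1 most like Akap13 (0.978), Jag1 most like Tmem176b (0.972), Hes1 most like Myom1 (0.969) and Hey1 most like Fam110b (0.949). These correlations describe 12 libraries of 4 groups that also share their medium and genotype, and each gene named was the most alike of all genes tested.

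A wider list of 54 Notch pathway genes was examined beside the 10, of which 40 passed the filter. In osteogenic medium 2 were called, both lower in knockout libraries: Maml2, a Mastermind co-activator (log2 fold change -0.30 ± 0.08 SE, limma adjusted p = 0.0356), and Tle3, a Groucho co-repressor that HES and HEY proteins recruit (-0.21 ± 0.05, adjusted p = 0.0399). Of all genes tested, 4.15% were called lower there. Neither of these calls held without a filter on low values or with any of the 6 osteogenic libraries left out. In adipogenic medium 9 were called higher and 9 lower, or 15 and 4 with all libraries scaled to equal sums of FPKM, and the median log2 fold change of the 40 was -0.04 against -0.01 for all genes. The share called, 18 of 40, stands beside the 33.2% of all genes. Under equal sums, 78.4% of all genes called were higher.

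The genes called higher in knockout adipogenic libraries were led by Dlk2, which encodes a Delta-like protein without the Notch-activating domain. It was at 0.374, 1.02 and 0.730 FPKM in control and at 2.37, 2.69 and 3.34 in knockout libraries (log2 fold change 1.16 ± 0.15 SE, limma adjusted p = 0.000318). Hes6, a HES factor known to oppose Hes1, followed (means of 9.19 and 15.5 FPKM, 0.72 ± 0.12, adjusted p = 0.00167), then Maml2 (3.86 and 5.75 FPKM, 0.47 ± 0.08, adjusted p = 0.0012). The interaction of genotype and medium for Maml2 was 0.77 ± 0.11 (adjusted p = 0.000942).

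The genes called lower there were led by Dtx3l, of the Deltex family of ubiquitin ligases (-1.10 ± 0.36, limma adjusted p = 0.0383), Rbpj (-0.84 ± 0.21, adjusted p = 0.0118) and Hdac1, a histone deacetylase (-0.57 ± 0.09, adjusted p = 0.00141). The groups of Dtx3l overlapped, at 5.44 to 21.1 FPKM in control and 4.45 to 6.59 in knockout adipogenic libraries. Rbpj, the DNA-binding partner of all 4 receptors, was at 22.1, 12.0 and 22.9 FPKM in control and 12.2, 8.89 and 8.53 in knockout adipogenic libraries. Control library 2 again lay in the range of the osteogenic libraries, which was 11.1 to 12.7 FPKM. The protease gene Adam17, which was not called (-0.69, adjusted p = 0.158), was at 47.9, 18.8 and 46.3 FPKM in control and 35.5, 16.8 and 15.8 in knockout adipogenic libraries. Its knockout library 1 stood with control libraries 1 and 3.

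By role, none of the 9 shedding and γ-secretase genes was called in osteogenic medium, and 1 was called higher and 1 lower in adipogenic medium. Of 5 glycosylation genes, which modify the receptors, 2 were higher and 1 was lower in adipogenic medium. Of 10 genes of the nuclear complex tested, 1 was higher and 3 were lower. These role counts stand beside 16.7% of all genes called higher and 16.5% called lower in adipogenic medium. Between the media in control cells 6 of the 40 were higher and 10 lower in adipogenic medium, beside 10.5% and 12.3% of all genes, or 3 and 10 with libraries scaled to equal sums, with Dtx2 (1.10), Rbpj (0.65) and Hdac1 (0.41) leading the former and Aph1c (-0.96), Mfng (-0.52) and Mib2 (-0.41) the latter on the log2 scale. In knockout cells 5 were higher, led by Dlk2 (1.11), Maml2 (0.50) and the Groucho gene Tle1 (0.46), and 3 were lower, Dtx4 (-0.68), Adam10 (-0.31) and Pofut1 (-0.23), beside 13.9% and 14% of all genes. With libraries scaled to equal sums, 4 were higher and 1 was lower. Under that scaling, 30.6% of all genes called between the media in control cells were higher, and 65.5% of those in knockout cells. Without control adipogenic library 2, the wider list had 14 genes called higher and 16 lower between the genotypes in adipogenic medium, and 16 higher and 14 lower between the media in control cells. Of all genes, 6559 were called between the genotypes without that library, against 4276 with it. Between the media in control cells, as many as 6147 of all genes were called with a library left out, against 2935.

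**Figure D4:**
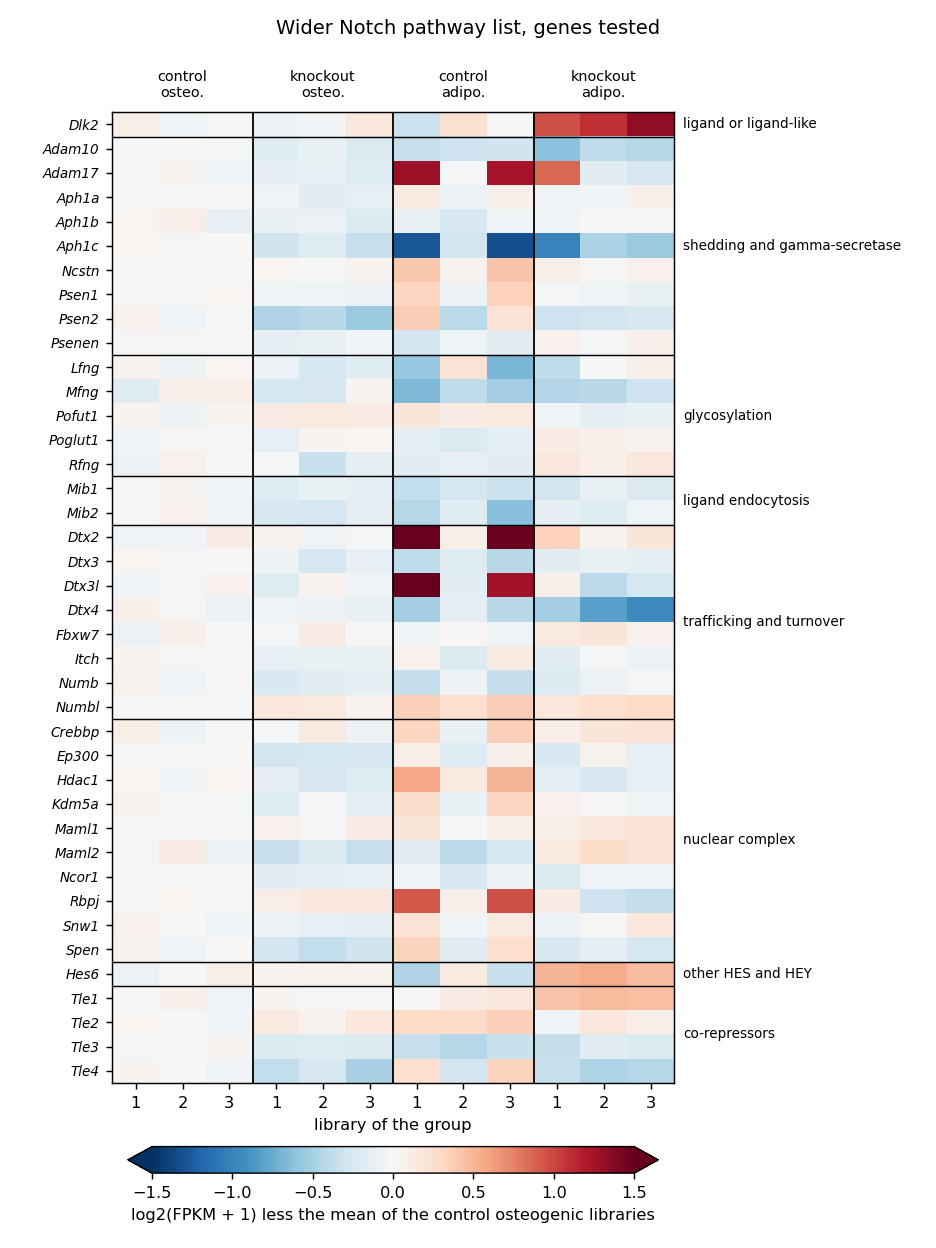
Colour gives log2(FPKM + 1) of the 40 wider Notch pathway genes tested (rows, grouped by role) less the mean of the 3 control osteogenic libraries, for the 12 libraries (columns), and the deepest colours also hold values beyond the ends of the scale. Rbpj, Dtx2, Dtx3l and Adam17 are high in control adipogenic libraries 1 and 3 and near the osteogenic level in library 2, while Dlk2 is high in the 3 knockout adipogenic libraries.

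Annotated genes that overlap the 10 were all low, the highest being 0610009E02Rik at up to 0.685 FPKM. Among the others were Gm17276, which is antisense to Notch3 (at most 0.131 FPKM), and Gm20462 within Notch4 (at most 0.135 FPKM). The use of strand in counting is not given in the sources used here, so reads of such pairs cannot be told apart.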

How the data were processed

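FPKM per gene and library were calculated by the authors before they were deposited, in a single table for the 12 libraries. According to the study's methods, NEBNext Ultra libraries were sequenced on a HiSeq, and HISAT2 and Ballgown were among the software listed. The submitters' processing notes name mm9 and Bowtie 0.12.2 without a role. The annotation and the use of strand are not given in the sources used here. Symbols came from GENCODE M21, on GRCm38 (54409 of 54532, 99.8%), whose exonic lengths gave whole fragments within 0.02 for 98.16% to 98.41% of values of up to 30 fragments per library, against 4% by chance. For Notch3 a length of 8044 bases was needed in place of the annotated 8089. Median ratios between libraries were equal to within an SD of 0.005%, so the deposited FPKM had been scaled by such ratios. Since amplification can copy a molecule, intervals and limits from fragments cover counting error only.

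Groups came from the labels. Tests used limma 3.58.1 in R 4.3.3 on log2(FPKM + 1), with a mean for each of the 4 groups, a trend of the variance with the mean, and p-values adjusted by Benjamini-Hochberg over 12871 genes with at least 1 FPKM in at least 3 libraries, at 0.05. Receptor shares were compared by exact permutation tests. The 10 genes, the wider list and the marker lists were chosen with earlier results of these data known. All 10 genes are named, and of the wider list up to 3 called higher and 3 called lower in each comparison. One item of the wider list is not reported here. Adam17 and the promoters shown were chosen after values were seen. Alternatives were a pseudocount of 0.1, no filter, rescaling to equal sums (TPM) or by median ratios, no trend, a fit of the 6 compared libraries alone, a block for the replicate number, limma voom on the recovered fragments, and each library left out. On data simulated for knockout against control in adipogenic medium with 12861 genes, 13 of 67 genes changed 1.5-fold, 50 of 67 changed 2-fold and 65 of 66 changed 4-fold were called, with 6 unchanged genes. In these data the spread beyond counting error was set equal for all genes and groups, and no library stood apart. The counts therefore do not give the power of the actual comparison. Figures were drawn with matplotlib 3.10.9.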

Additional observations from a re-analysis of the deposited data

Results flagged for a closer look

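By the limma interaction term, the genotype difference depended on the medium for 3 of the 7 Notch genes tested, beside 20.4% of all genes. The knockout minus control difference in adipogenic medium less that in osteogenic medium was -0.71 for Notch1, 1.04 for Notch3 and 1.36 for Notch4 on the log2 scale (limma adjusted p = 0.0388, 0.00106 and 7.23e-05). The call for Notch1 was lost when any library other than control adipogenic library 2 was left out. Notch1 was higher by 0.03 in knockout osteogenic libraries and lower by a log2 value of -0.68 in knockout adipogenic libraries, while Notch3 and Notch4 differed by 0.01 and -0.09 in the former and by 1.05 and 1.28 in the latter.

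The same term was called for 14 of the 40 genes of the wider list that were tested, 11 upwards and 3 downwards, beside 10.9% and 9.58% of all genes. With libraries scaled to equal sums, where 75.4% of all calls were upwards, it was called upwards for 12 and downwards for 1. It was upwards for Dlk2 (1.15), Maml2 (0.77), Hes6 (0.67), the ligand ubiquitin ligases Mib2 (0.49) and Mib1 (0.27), the glycosyltransferases Rfng (0.45) and Poglut1 (0.27), the co-repressors Tle1 (0.36) and Tle3 (0.34), Dtx3 (0.34) and the γ-secretase subunit Psenen (0.31). It was downwards for Rbpj (-0.98), the fucosyltransferase Pofut1 (-0.37) and the co-repressor Tle2 (-0.36). Of these, Rbpj had the value of -0.98 with control adipogenic library 2 at 12.0 FPKM, against 22.1 and 22.9 in libraries 1 and 3.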

How the results depend on the processing

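Over the 7 genes and 5 comparisons, 255 of the values under the other settings kept their direction and their side of the threshold, 9 lost and 4 gained a call, and 5 changed sign. With a library left out, 192 kept both, 33 lost and 10 gained a call, and 17 changed sign. The cause was not tested for any of these, other than that a left-out library leaves fewer libraries. All sign changes were of values that were not called. Depth limits Dll1, Dll4 and Heyl, which had at most 18 fragments, and Hey1 was also low in control adipogenic libraries.

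Genotype in osteogenic medium called 1170 genes, 526 under equal sums (TPM), 3418 with only the 6 libraries compared and 522 to 662 with a library left out. For the 7 genes it called 0, and 1 with only the 6 libraries. For the wider list it called 2, 0 without a filter, 1 under TPM, 15 with only the 6 libraries and 0 to 0 with a library left out. Signs changed for Hey1 under TPM (-0.0027) and voom (-0.0046), and with a library left out for Notch1 (-0.0017 to 0.0561), Notch3 (-0.0466 to 0.0968) and Hey1 (-0.11 to 0.12).

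Genotype in adipogenic medium called 4276 genes, 1671 with only the 6 libraries and 2723 (without knockout library 3) to 6559 (without control library 2) with a library left out. It called 5 of the 7 genes, 3 with only the 6 libraries and 4 to 7 with a library left out, and 18 of the wider list, 7 and 8 to 30. Jag1 ranged from -0.65 to 0.0329 with a library left out. The interaction called 2630 genes and 1754 to 5427 with a library left out, 3 of the 7 genes and 2 to 7, and 14 of the wider list and 8 to 24. Jag1 changed sign under TPM (0.0695) and ranged from -0.56 to 0.12 with a library left out.

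Between the media in control cells 2935 genes were called, 490 with only the 6 libraries and 1367 to 6147 with a library left out. Of the 7 genes 2 were called, 0 without a filter, 0 with only the 6 libraries and 0 to 5 with a library left out, and of the wider list 16, 10, 4 and 6 to 30. Hes1 was -0.0715 under TPM and -0.0704 to 0.18 with a library left out. In knockout cells 4 of the 7 genes were called, 2 to 3 with a library left out, and 8 of the wider list, 5 under TPM. Notch2 was 0.0488 under TPM and -0.0573 to 0.0228 with a library left out, and Hey1 -0.0822 to 0.13. Receptor shares differed in percentage points with a library left out by -2.07 to 0.19 (Notch2) and -0.26 to 0.94 (Notch3) between genotypes in osteogenic medium, and by -0.16 to 1.20 (Notch1) and -0.78 to 0.54 (Notch3) between media in control cells.

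TPM moved the median log2 fold change of all genes to 0.14 for genotype in adipogenic medium, 0.16 for the interaction and -0.10 between media in control cells, and the share of calls that were higher from 50.4% to 78.4%, 53.1% to 75.4% and 46.1% to 30.6%, and in knockout cells from 49.7% to 65.5%. Relative to 0.14, Notch1 still fell and Notch3, Notch4, Hes1 and Hey1 still rose.

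What the replicate numbers in the labels mean is not stated. Same-numbered control and knockout libraries had correlations of their deviations from the group means of -0.04 to 0.06 in osteogenic and -0.29 to 0.47 in adipogenic medium. In adipogenic medium 2 of the 3 pairs were over 0.1. With 3 libraries in a group, of which control adipogenic library 2 stood apart, these correlations cannot decide whether the numbers pair libraries. With the replicate block 1018 genes were called for genotype in osteogenic and 4167 in adipogenic medium, 2473 for the interaction, 2907 between media in control and 3471 in knockout cells. It called 0 of the wider list in osteogenic medium, and in the interaction Notch1 was lost (adjusted p = 0.0504) and Hes1 gained (adjusted p = 0.049) while the count of 3 stayed.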
